A study of Mus musculus with 4 samples.

Results

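Changes in DNA methylation between birth (postnatal day 0, P0) and the end of suckling (P21) that occurred in both colonic epithelial populations were described here. Whole-genome bisulfite sequencing had been done on 4 libraries, and all 4 of the 4 in the series were used. At each age, 1 library came from intestinal stem cells (ISCs) sorted as Lgr5-EGFP-positive and 1 from differentiated epithelial cells sorted as EpCAM-positive and Lgr5-EGFP-negative, so P21 and P0 each had 2 libraries. All cells came from the colon, with the strain given as C57, and no deletion or treatment was applied. Lgr5-EGFP-CreER mice, whose knock-in allele reports the activity of the Lgr5 locus, had been crossed with wild-type C57 mice. Whole litters had been pooled at P0 and EGFP-positive offspring at P21, so the P0 differentiated cells may include cells of littermates without the allele, and pooling differed with age. Each age and population was therefore a single pooled sample, and the spread between animals was not measured. Whether ISCs and differentiated cells of an age came from the same pool of animals is not stated, so the populations may not be independent repeats of the age difference. The members of the comparison were the autosomal 200-bp bins with 2 or more CpGs and 10 or more calls in every library, 4076373 of 4938585 bins with 2 CpGs (82.5%). A bin counted as changed where P21 and P0 differed by more than 15 percentage points, in the same direction, in both populations, each at an adjusted p below 0.05 by Fisher's exact test.

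Methylation of CpG sites is laid down by de novo methyltransferases and copied at each cell division, and most CpGs of a mammalian genome carry it, apart from CpG islands (CGIs) and active regulatory elements. Loss at an enhancer or a promoter outside islands usually goes with factor binding, whereas methylation within transcribed genes, including islands inside them, often goes with expression. During suckling the mouse colon completes crypt formation, takes up its adult transport functions and meets a growing microbiota, and at weaning it changes from milk to solid food.

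The 4 libraries held 1031520845, 1188114423, 1040405243 and 1023427645 calls in the order ISC P0, differentiated P0, ISC P21, differentiated P21. Between 50.5% and 63.7% of the calls lay at the 1930 to 3111 positions with more than 1000 calls, so the depth of an ordinary bin was far lower, with medians of 55, 81, 58 and 68 calls in the same order. Bins with more than 250 calls per CpG in any library were left out of all sums over promoters and genes. Promoters of 11 epithelial genes, among them Epcam, Vil1 and Cdx2, had median levels of 0.617% to 2.59% in the 4 libraries. The highest epithelial promoter in each library was at 51.4% to 55.4%. Promoters of 10 leukocyte genes had medians of 78.5% to 80.7%, with the lowest in each library at 5.15% to 8.18%. Those of 5 endothelial genes had medians of 67.4% to 70.6%. The mesenchyme and muscle list had medians of 19.3% to 28.7%, the erythroid list 33.0% to 41.0%, with 3 promoters only, and the neural and glial list 23.8% to 28.9%. The Lgr5 promoter itself was at 3.73% (ISC) and 2.05% (differentiated) at birth and at 1.70% and 6.51% at P21, so promoter methylation did not separate the populations by their sorting marker.

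More bins lost than gained methylation with age. In both populations together 10405 bins gained (0.255% of the bins tested) and 27417 lost methylation (0.673%), while 320 bins passed the thresholds in opposite directions in the populations. Within single populations 104140 bins passed in ISCs and 116373 in differentiated cells. Given for ISCs first, the median level of gained bins was 39.2% and 40.7% at P0 and 71.9% and 69.4% at P21. Lost bins stood at 63.3% and 62.7% at P0 and at 19.9% and 21.1% at P21. Over all bins tested the 4 medians were between 85.4% and 85.9%. The age difference was therefore a change at restricted places, with the typical bin at nearly the same level at both ages. By the same rule applied across the other axis of the design, differentiated cells against ISCs in 1 direction at both ages, 182 bins passed (0.00446%). Changed bins were more deeply covered than others, with a median of 100 calls in the shallowest library for gained bins, 73 for lost bins and 44 for all bins, and with all libraries thinned to the lowest depth of each bin 22165 bins changed.

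Gains and losses lay in different kinds of sequence. CGI bins made up 8.85% of gained bins, 0.46% of lost bins and 3.57% of all bins tested. In bins of CGIs within a last exon, 213 of 6066 gained (3.51%) and 23 lost (0.379%), whereas in CGI bins of promoters, from 1000 bp upstream to 500 bp downstream of the start, 111 of 55433 gained (0.20%) and 17 lost (0.0307%). Islands in other exons gained in 1.90% and those in introns in 0.921% of bins. Outside islands the order turned, and losses outnumbered gains in each of the 5 places examined. Promoter bins outside islands lost methylation in 1.18% and gained in 0.551%. Introns held 46.5% of lost, 50.2% of gained and 39.6% of all bins. Bins within 2 kb of a start made up 11.7% of gained bins, 7.58% of lost bins and 5.65% of all bins, and 67.8% of gained, 71.1% of lost and 80.3% of all bins were more than 10 kb away. Most changed bins thus lay far from starts, as did most bins tested, in a larger share.

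**Figure D1:**
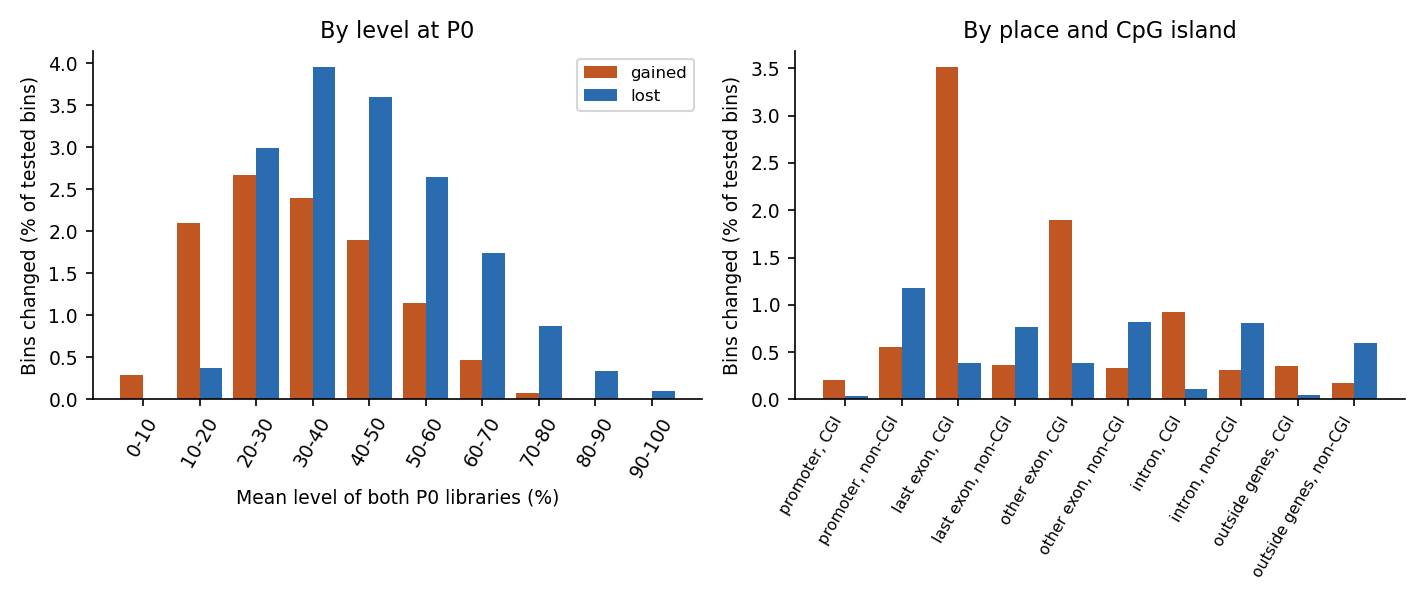
Share of tested 200-bp bins, in percent, that gained (orange) or lost (blue) methylation from P0 to P21 in both populations, by the mean level of both P0 libraries (left) and by place in the gene and CGI (right). Bins in CGIs of last exons gained most often, at 3.51%, and the highest share of losses, 3.95%, was at P0 levels of 30 to 40%.

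The shares of changed bins differed by the level at birth. Of bins with a mean P0 level of 10 to 20%, 2.10% gained and 0.372% lost methylation, and of bins at 30 to 40%, 2.40% gained and 3.95% lost. Fully methylated bins, at 90 to 100%, lost in 0.0972% and bins at 0 to 10% gained in 0.292%. The P0 level is also part of the difference, so these shares are a description. By CpG number, gains were most frequent in bins with 6 to 9 CpGs (0.827%), as were losses (1.07%), and bins with 15 or more CpGs gained in 0.516% and lost in 0.0292%.

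Most changed bins had no adjacent bin changed in the same direction. When adjacent changed bins of 1 direction were joined, 7030 of 8424 gaining and 18788 of 22547 losing stretches were single bins. A stretch also ended at any bin that was not tested, so a single bin may have had no tested neighbour. Runs of 3 or more bins numbered 374 and 780 and held 12.8% of gained and 9.74% of lost bins. The longest gaining runs each spanned 10 bins. The first lay at chr4:41444601-41446600 in exon 2, the last exon, of AI464131, a glycosidase gene, and held 160 CpGs, all 10 bins being CGI bins. Its level was 20.9% (ISC) and 25.2% (differentiated) at birth and 67.8% and 68.7% at P21. The second, at chr15:79091201-79093200, ran from intron 7 to intron 10 of Baiap2l2, which encodes a membrane-bending protein of the cell cortex, and went from 30.5% and 26.7% to 69.3% and 67%. The third, at chr3:86350001-86352000, lay in the only exon of Mab21l2, a developmental gene inside intron 40 of Lrba, and went from 41.8% and 37.3% to 77.3% and 73.2%.

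The longest losing run, of 15 bins at chr4:45814001-45817000, covered the end of intron 1 and exon 2 of Aldh1b1, a mitochondrial aldehyde dehydrogenase. It went from 81.6% and 84.6% at P0 to 42.5% in ISCs and 57.0% in differentiated cells at P21. A run of 8 bins lay in the first intron of Vdr, the vitamin D receptor, where chr15:97729001-97730600 fell from 75.5% and 75.8% to 19.6% and 19.7%. A second run of 7 bins in the same intron, chr15:97735601-97737000, fell from 87.4% and 86.6% to 11.4% and 6.38%. Of 209 tested bins in Vdr, 43 lost methylation (20.6%) and 6 gained it (2.87%). Both runs in Vdr were at similar levels in ISCs and differentiated cells of the same age, and both ages were far apart.

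**Figure D2:**
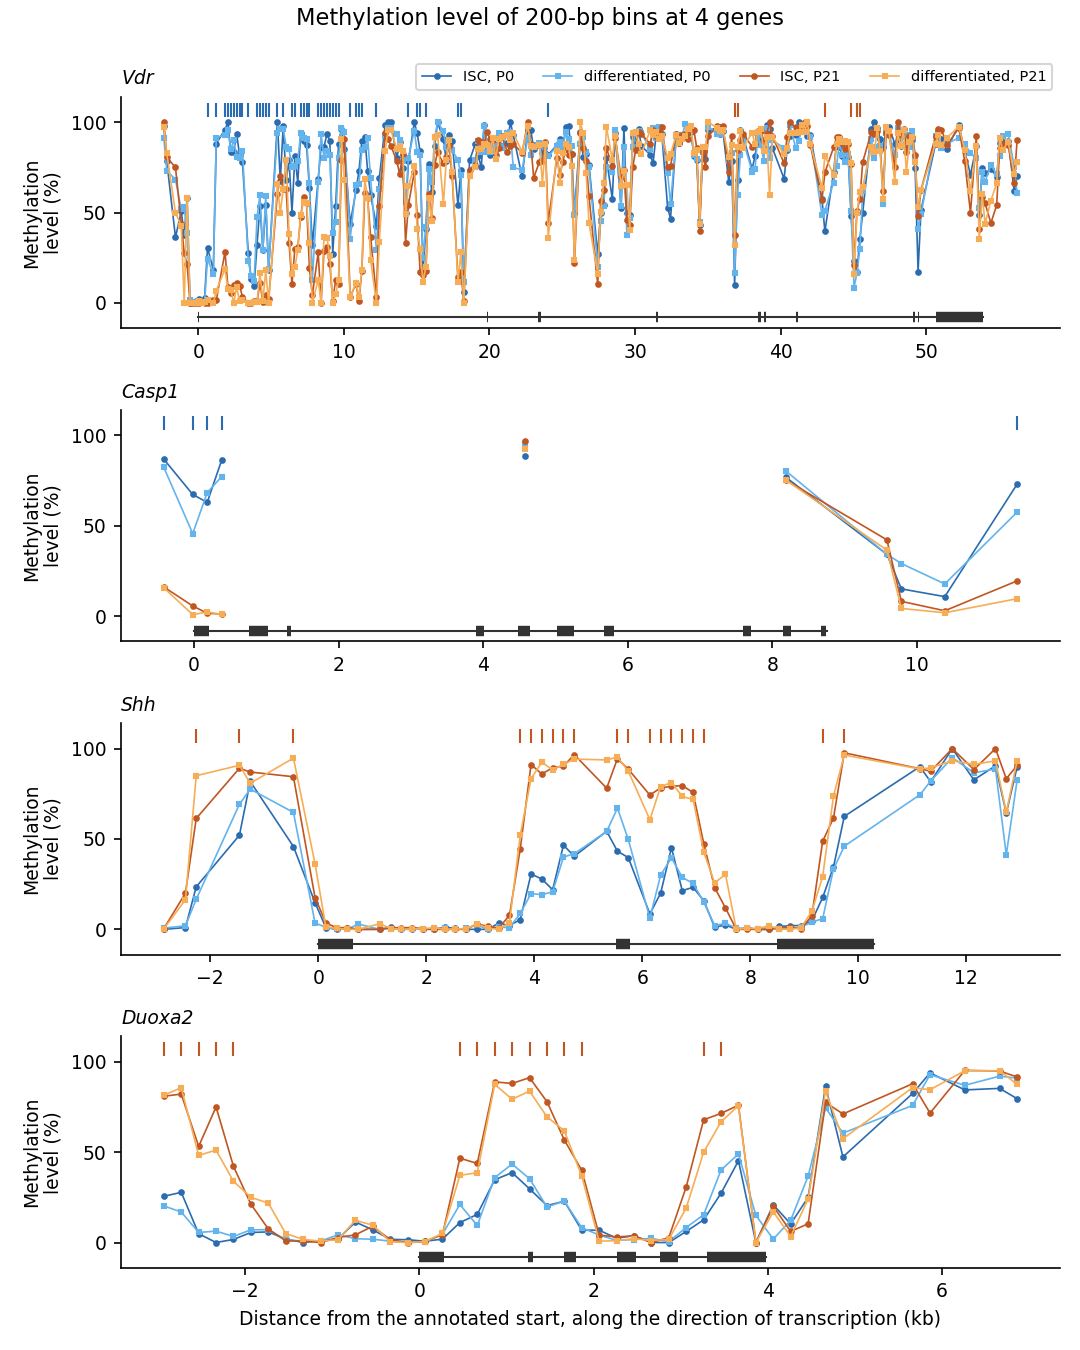
Methylation level, in percent, of each tested 200-bp bin (points) against distance from the annotated start in kb, in the 4 libraries, with exons as thick bars below and bins gained (orange ticks) or lost (blue ticks) in both populations above. The blue and orange lines part over the first intron of Vdr, the start of Casp1 and intervals in and around Shh and Duoxa2, and the ISC and differentiated lines of an age run together.

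By gene, 2801 of 20944 protein-coding genes with a tested bin (13.4%) held a gained bin and 5426 (25.9%) a lost bin, and 1604 held both. Among 14689 genes with 20 or more tested bins, Duoxa2 had the largest share of gained bins, 10 of 25 (40%). Duoxa2 is the maturation factor that brings the hydrogen peroxide-producing oxidase Duox2 to the cell surface. Shh, the hedgehog ligand of the gut epithelium, followed with 17 of 47 (36.2%), and its mean bin level rose from 13.7% in both P0 libraries to 33.4% in ISCs and 34.1% in differentiated cells. Hoxd4 had 10 of 30 (33.3%) and Amn, a partner of cubilin in endocytic uptake, 9 of 28 (32.1%). None of these 4 genes held a lost bin. The largest shares of lost bins were in Aldh1b1, with 16 of 28 (57.1%), and in Rgmb, a bone morphogenetic protein co-receptor, with 31 of 66 (47.0%). Nlrp6, an inflammasome sensor of the gut epithelium, had 14 of 34 (41.2%) and Nr2e3, a nuclear receptor best known from photoreceptors, 12 of 30 (40%). These 4 genes held no gained bin.

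The bins that changed most within introns of 3 genes are shown with each CpG in capitals, as the forward strand of mm9. They were chosen because Shh and Duoxa2 carried large gains and Vdr large losses. The Shh bin, chr5:28789201-28789400 in intron 1, rose from 21.9% and 20.8% to 89.4% and 88.2%. The Duoxa2 bin, chr2:122126001-122126200 in intron 2, rose from 20.5% and 19.7% to 78% and 69.6%. The Vdr bin, chr15:97730201-97730400 in intron 1, fell from 86.5% and 93.4% to 0% in both P21 libraries. Those libraries had 51 and 103 calls there, which would allow up to 5.88% and 2.91% if calls were independent. The bin held 3 CpGs, and calls of CpGs on the same read are not independent, so the limits may be higher.
Shh: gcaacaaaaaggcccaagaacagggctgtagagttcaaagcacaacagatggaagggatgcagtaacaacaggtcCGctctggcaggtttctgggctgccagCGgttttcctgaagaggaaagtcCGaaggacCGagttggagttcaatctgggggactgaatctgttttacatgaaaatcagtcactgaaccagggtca
Duoxa2: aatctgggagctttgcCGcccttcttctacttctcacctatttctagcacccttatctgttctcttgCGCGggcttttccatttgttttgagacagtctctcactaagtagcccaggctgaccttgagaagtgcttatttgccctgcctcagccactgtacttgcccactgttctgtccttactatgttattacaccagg
Vdr: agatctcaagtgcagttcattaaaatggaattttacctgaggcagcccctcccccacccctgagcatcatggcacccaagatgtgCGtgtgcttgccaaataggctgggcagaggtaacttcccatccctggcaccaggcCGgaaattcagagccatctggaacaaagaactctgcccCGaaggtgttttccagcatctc

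Promoters were then tested by edgeR's quasi-likelihood fit of methylated and unmethylated calls with age and population as terms. A promoter was called at an adjusted p (Benjamini-Hochberg) below 0.05, a mean difference of the populations over 10 points and the same sign in both. Of 20142 promoters 159 gained (0.789%) and 232 lost methylation (1.15%). Gained promoters had median levels of 40.9% and 40.7% at P0 and 62.5% and 60.2% at P21, and lost promoters 56.0% and 55.1% at P0 and 27.3% and 28.5% at P21. Promoters with a CGI bin were rarely called, with 48 gains and 10 losses of 12485, against 111 gains and 222 losses of 7657 promoters without one. With Fisher's test in each population, 377 promoters passed in both, 320 of them among the 391 called. The fit had 1 residual degree of freedom per promoter. It borrowed its spread wholly from all promoters, so a promoter's own disagreement between the populations had no weight. The p-values cover counting and that disagreement pooled over promoters, not animals. With limma on log2 ratios 7 promoters were called, all losses.

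**Figure D3:**
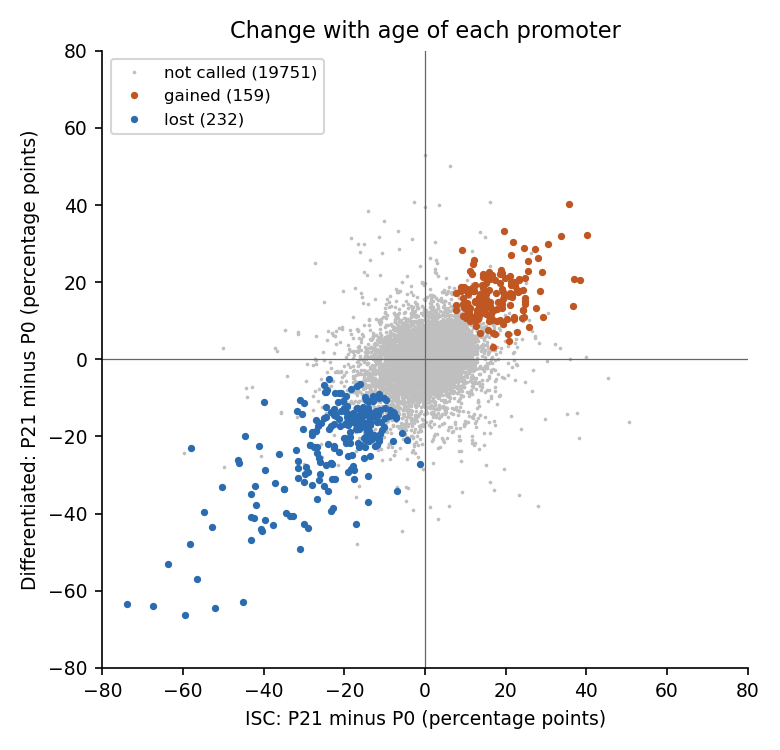
Change from P0 to P21 of each of 20142 promoters in ISCs (horizontal axis) and in differentiated cells (vertical axis), both in percentage points. Called promoters, 159 gains in orange and 232 losses in blue, lie where both changes have the same sign, as the rule asked, and uncalled promoters (grey) centre on 0.

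Promoters, gene bodies and last exons were ranked by size only among those with 100 or more calls in every library. The 8 promoters that lost most by that ranking included those of Casp1, Pigr and Tnfsf13. All values are given for ISCs and then differentiated cells. The promoter of Casp1, the caspase that activates interleukin-1 beta and interleukin-18, chr9:5297517-5299016, fell from 72.5% and 68.8% to 4.95% and 4.89% (adjusted p = 1.18e-67, edgeR), and all 4 of its tested bins were lost bins. That of Pigr, the receptor that carries polymeric immunoglobulin A across the epithelium, chr1:132722261-132723760, fell from 78.7% and 76.2% to 26.5% and 11.6% (adjusted p = 2.05e-39, edgeR). Tnfsf13, which encodes the B cell and plasma cell factor APRIL, fell from 55.4% and 71.4% to 10.2% and 8.54%. These promoters were chosen for their differences, so the distance between the ages is a description.

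Others of the 8 leading losses encode enzymes, a channel and lipid-related proteins. Apol10a, of the apolipoprotein L family, had the largest mean difference of the 8, from 86.6% and 87.9% to 12.7% and 24.3%, on 118 to 189 calls. Xdh, the xanthine dehydrogenase that makes urate in purine breakdown, fell from 69.3% and 56.6% to 5.56% and 3.57%. Aqp4, a water channel, fell from 60.1% and 66.0% to 3.58% and 9.07%. Vnn3, of the vanin family of pantetheinases, fell from 79.6% and 70.5% to 21.3% and 22.7%, and Mettl7b, a methyltransferase-like protein, from 60.2% and 52.0% to 7.47% and 8.43%. With the mean of bin levels in place of summed calls the change of Vnn3 was -31.1 points and not -53.1, and that of Mettl7b -25.9 and not -48.2.

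The gains were smaller than the losses and began from lower levels. Cd200, a membrane glycoprotein that restrains myeloid cells, had the largest of those ranked, from 28.8% and 19.9% to 64.5% and 60.2% at chr16:45408667-45410166 (adjusted p = 1.51e-15, edgeR). Dnajb3, a co-chaperone, rose from 25.2% and 19.3% to 58.9% and 51.3%, and Nrbp2, a pseudokinase, from 19.8% and 19.9% to 50.1% and 49.8%. Hoxa3 had a pair of annotated genes with overlapping promoter windows, which share most of their calls. One rose from 3.56% and 2.98% to 41.9% in ISCs and 23.5% in differentiated cells, and the other from 2.15% and 2.68% to 39.0% and 23.6%. Slc39a2, a zinc transporter, rose from 36.7% and 30.3% to 64.0% and 59.0%, Gm973 from 32.5% and 34.2% to 60.6% and 60.4%, and Wnt8a, a Wnt ligand, from 38.3% and 38.6% to 62.9% and 67.6%. The widest 95% Wilson interval of any level of the promoters, gene bodies and last exons named by size was 27.4% to 44.9%, for the last exon of Cdkn2c in ISCs at P0, and such intervals cover counting error only.

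**Figure D4:**
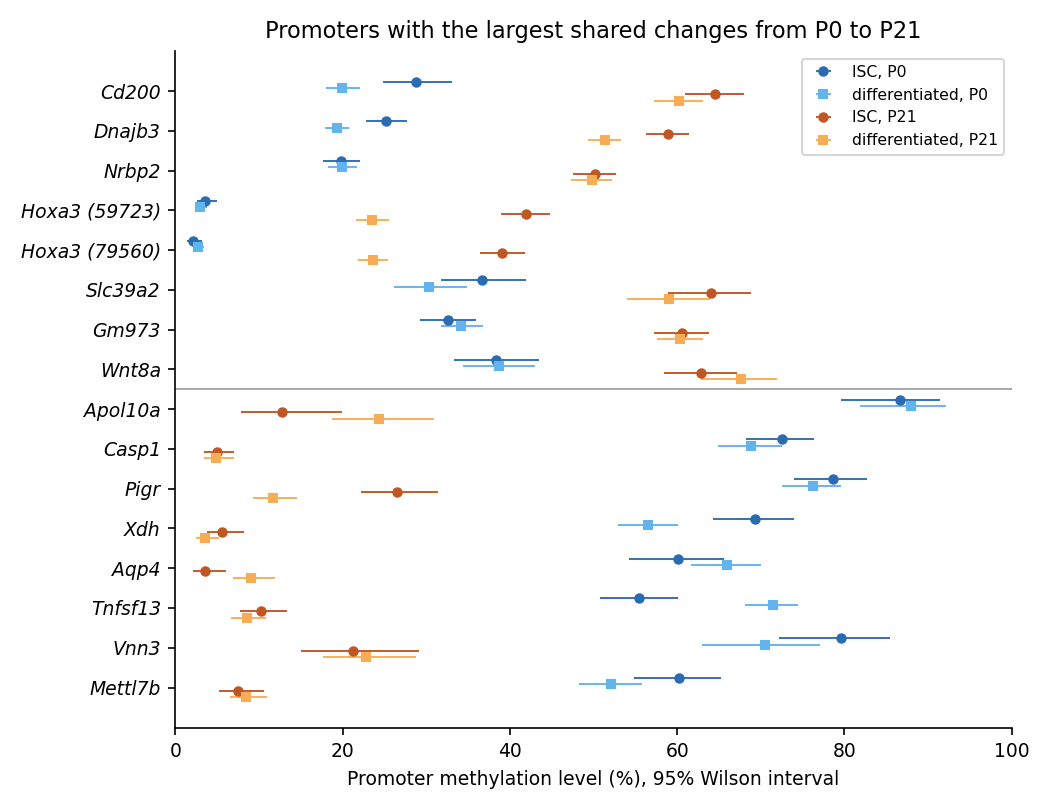
Methylation level, in percent, of the 8 promoters with the largest gains (above the line) and the 8 with the largest losses (below) among those with 100 or more calls in every library, in the 4 libraries, with 95% Wilson intervals for counting error. P0 (blue) and P21 (orange) libraries lie apart in all 16, which were chosen for the size of that difference, and Hoxa3 at P21 is higher in ISCs than in differentiated cells.

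The most changed bin outside annotated exons is shown for 3 gaining and 3 losing promoters, forward strand of mm9, with CpGs in capitals, because it carries the change at single-bin scale. The Cd200 bin held 8 CpGs, of which 7 are in capitals, since the bin ends at the C of the last one. In Cd200 (chr16:45408601-45408800, intron 1) it rose from 31.9% and 23.7% to 77.2% and 73.4%. In Dnajb3 (chr1:90102401-90102600, upstream) it rose from 49.4% and 34.5% to 80.9% and 70.5%, and in Nrbp2 (chr15:75920601-75920800, upstream) from 11.3% and 12.8% to 58.4% and 54.5%.
Cd200: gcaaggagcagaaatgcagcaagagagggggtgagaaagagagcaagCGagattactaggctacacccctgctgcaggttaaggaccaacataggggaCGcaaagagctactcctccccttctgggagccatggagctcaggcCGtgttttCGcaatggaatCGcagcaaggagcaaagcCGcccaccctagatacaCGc
Dnajb3: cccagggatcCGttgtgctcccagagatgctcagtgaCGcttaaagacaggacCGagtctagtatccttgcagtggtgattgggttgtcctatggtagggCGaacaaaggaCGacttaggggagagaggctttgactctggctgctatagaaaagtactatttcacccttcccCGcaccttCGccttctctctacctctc
Nrbp2: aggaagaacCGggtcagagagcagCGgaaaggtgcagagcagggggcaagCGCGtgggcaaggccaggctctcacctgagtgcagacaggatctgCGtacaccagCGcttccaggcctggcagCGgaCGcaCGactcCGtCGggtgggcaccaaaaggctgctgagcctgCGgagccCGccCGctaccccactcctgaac

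The losing bins held fewer CpGs. In Apol10a (chr15:77307001-77307200, upstream) the level fell from 90.9% and 92.0% to 22.2% and 20.8%, on 11, 25, 18 and 24 calls. In Casp1 (chr9:5298801-5299000, intron 1) it fell from 86.4% and 77.2% to 1.19% and 1.0%, and in Pigr (chr1:132723001-132723200, upstream) from 77.3% and 82.5% to 8.62% and 2.89%. Each of these 3 bins held 2 CpGs, against 7 to 14 in the gaining bins.
Apol10a: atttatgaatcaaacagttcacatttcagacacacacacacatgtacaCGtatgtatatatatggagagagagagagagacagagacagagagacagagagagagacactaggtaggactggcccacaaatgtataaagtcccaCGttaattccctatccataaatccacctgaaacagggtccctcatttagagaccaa
Casp1: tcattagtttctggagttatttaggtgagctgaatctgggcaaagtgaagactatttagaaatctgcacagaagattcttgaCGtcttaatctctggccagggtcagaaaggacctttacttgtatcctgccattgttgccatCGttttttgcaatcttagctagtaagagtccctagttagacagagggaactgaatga
Pigr: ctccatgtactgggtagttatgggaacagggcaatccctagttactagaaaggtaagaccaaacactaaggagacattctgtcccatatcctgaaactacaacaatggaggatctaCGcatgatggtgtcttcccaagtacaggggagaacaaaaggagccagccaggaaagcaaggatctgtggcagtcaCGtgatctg

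Gene bodies, from 500 bp after the start to the end of the gene, gained in 115 (0.578%) and lost in 180 (0.905%) of 19884. Among bodies with 100 or more calls in every library, the largest gain was that of Mab21l2, from 40.7% and 37.1% to 76.8% and 73.0%. Of the other leading gains, 1700106J16Rik rose from 19.5% and 30.8% to 53.8% and 58.3%. Gm7325, with a single tested bin, rose from 3.78% and 9.19% to 41.1% and 31.8%, and the histone H3 gene Hist1h3d, which has near-identical copies, from 18.9% and 12.0% to 46.2% and 44.4%. Gpx2, the glutathione peroxidase of the gut epithelium, lost most among bodies with that depth, from 48.2% and 61.0% to 16.4% and 14.9%. 9930021J03Rik fell from 81.9% and 80.1% to 40.8% and 46.2%, Nr2e3 from 71.2% and 72.7% to 39.2% and 39.1%, and Rgmb from 63.8% and 59.1% to 31.9% and 30.5%. A promoter and gene body were both called in the same direction in 34 genes and in opposite directions in 4.

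Last exons were called more often than promoters or bodies, with 292 gains (1.58%) and 331 losses (1.8%) of 18425. Their median depth in the shallowest library was 248 calls, against 794 for promoters and 3039.5 for bodies. Outside islands, bins of last exons gained in 0.36% and lost in 0.77%, against 0.55% and 1.18% in promoters and 0.31% and 0.80% in introns. The part of region size in the share of called last exons was not tested. Of the 2122 last exons with a CGI bin 108 gained and 22 lost, and of the 16303 without one 184 gained and 309 lost. Among last exons with 100 or more calls in every library, the largest gains were in Cdkn2c, the cell cycle inhibitor p18, from 35.7% and 25.8% to 84.0% and 81.5%, and in Nr1d1, the circadian repressor Rev-erb alpha, from 28.5% and 26.8% to 71.3% and 70.0%. Mycn, a proto-oncogene of the Myc family, rose from 38.2% and 36.9% to 78.2% and 79.6%, and Tap1, the peptide transporter of antigen presentation, from 31.6% and 31.5% to 68.8% and 73.3%. The leading losses at that depth were in Sel1l3, from 80.3% and 75.7% to 22.8% and 24.5%, and in Gpx2, from 76.6% and 78.3% to 34.1% and 25.3%. Cul4a, a ubiquitin ligase scaffold, fell from 80.9% and 77.0% to 41.8% and 25.2%. Il1a, a cytokine gene, fell from 56.9% and 57.3% to 17.3% and 9.21%, by 43.9 points on average with summed calls and by 19.4 points with the mean of bin levels.

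Of 22 genes of the stem cell and its Wnt control 5 gene bodies lost and 0 gained methylation, beside 0.905% lost and 0.578% gained over all bodies, with a median change of -2.06 points beside -0.33 over all bodies. These were the Wnt feedback inhibitors Axin2 and Rnf43, the growth factor receptor inhibitor Lrig1, the Eph receptor Ephb3 and Rgmb. Lrig1 fell from 65.9% and 67.7% to 43.3% and 44.5%, with 92 of 295 bins lost (31.2%) between 1000 bp upstream and its end. The megabase that holds it, chr6:94000001-95000000, had 127 of 2225 bins lost (5.71%), the highest of 2393 such windows, whose median was 0.457%. The 92 lost bins of Lrig1 are among these 127, so the window's share is not separate from that of the gene. Axin2 fell from 70.5% and 66.4% to 53.2% in both P21 libraries, Ephb3 from 71.1% and 75.2% to 58.3% and 58.2%, and Rnf43 from 50% and 50.6% to 37.1% and 38.7%. None of the 22 promoters was called by edgeR, with 4 at an unadjusted p under 0.05 and 0 called by the Cochran-Mantel-Haenszel test, Fisher's test in both populations or limma. Lgr5, the marker used for sorting, had a gene body level of 73.6% and 74.6% at P0 and 74.0% and 73.9% at P21. Last exons of Ascl2, a stem cell transcription factor, and Myc also lost methylation, Ascl2 from 37.0% and 50.8% to 19.4% and 12.1% and Myc from 78% and 78.8% to 50.6% and 58.2%. Thus 2 of 21 last exons lost and 0 gained, beside 1.8% and 1.58% of all last exons. Fisher's test in both populations was passed by 1 of the 21. From 1000 bp upstream to the end of Ascl2, 0 of 15 tested bins were lost and 0 gained, against 3 lost of 26 in Myc. The mean bin level of Ascl2 was 15.7% and 17.3% at P0 and 16.4% in both P21 libraries.

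All gene lists were chosen with earlier results of these data known, so their shares beside those of all features are a description. Barrier and microbial sensing genes lost at 4 of 28 promoters and gained at 0, beside 1.15% and 0.789% of all promoters, with a median of -0.31 points beside 0.03 over all promoters. These were Pigr, the chemokine gene Ccl20 (27.8% and 23.2% to 8.91% and 8.30%), and the antioxidant enzymes Nqo1 (17.2% and 18.4% to 6.0% and 5.35%) and Gpx2 (15.9% and 26.1% to 7.59% and 12.4%). Bodies of Ccl20, Pigr, Nlrp6, Nqo1 and Gpx2 lost and that of Duoxa2 gained, of 29, beside 0.905% and 0.578% of all bodies. The median change of the 29 bodies was 1.35 points, opposite in sign to most of these calls, beside -0.33 over all. That of Ccl20 had 3 tested bins, none of them a lost bin, and fell from 77.5% to 42.9% in ISCs and from 69.2% to 61.2% in differentiated cells, on at least 78 calls. It did not pass Fisher's test in both populations, and its mean change was -21.3 points with summed calls and -12.9 with the mean of bin levels. That of Nlrp6 fell from 35.4% and 29.8% to 13.5% and 11.9%, and that of Duoxa2 rose from 12.1% in both P0 libraries to 36.1% and 26.7%. Last exons of Nqo1, Gpx2 and the class II gene H2-Ab1 lost, and those of Duoxa2 and the class II regulator Ciita gained, of 23, beside 1.8% and 1.58% of all last exons. Fisher's test in both populations was passed by 3 of the 23. From 1000 bp upstream to the end, H2-Ab1 held 0 gained and 0 lost of 24 tested bins. Ciita held 0 gained and 2 lost of 115, and its other entry 0 of 13. The last exon of Duoxa2 rose by 29.1 points with summed calls and 18.9 with the mean of bin levels. The Tlr4 promoter did not pass, at 32.5% and 30.7% against 21.0% and 22.3% (adjusted p = 0.141, edgeR).

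Of 20 promoters of colonocyte transport genes 2 lost, Aqp4 and the chloride exchanger Slc26a3 (28.2% and 24.2% to 11.9% and 9.85%), and 0 gained, beside 1.15% and 0.789% of all promoters, with a median of -0.77 points. The last exon of Sgk1, a kinase of sodium transport, fell from 84.8% and 83.7% to 69.3% and 68.2%, and that of the lysophosphatidic acid receptor Lpar5 rose from 27.9% and 25% to 47.8% and 44.4%. These were the called members of 18 last exons, beside 1.8% lost and 1.58% gained of all last exons. From 1000 bp upstream to its end, however, Lpar5 held 3 gained and 7 lost of 39 tested bins. Its mean bin level over that stretch fell from 59.2% and 59.7% to 49.4% and 47.8%. Secretory genes had 1 gain, Clca3, and 1 loss, Fcgbp, both goblet cell products, among 20 promoters, with a median of 0.14 points. Fisher's test in both populations was passed by 2 of the 20. From 1000 bp upstream to the end, Clca3 held 0 gained and 0 lost of 72 tested bins, and Fcgbp 0 and 0 of 154. The mucin gene Muc1 lost at its last exon, from 50% and 59.2% to 16.4% and 17.8%, and over its body, by 15.3 points with summed calls and 7.74 points with the mean of bin levels. The Muc2 promoter, of the main goblet cell mucin, was at 45.6% and 40.3% against 30% and 31.2% and did not pass (adjusted p = 0.0794, edgeR).

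In the suckling to weaning list 1 of 23 promoters lost, that of trehalase, Treh (47.8% and 66.5% to 30.3% and 35.6%), the body of Amn gained (23.5% and 25.7% to 49.4% and 43.9%), 1 of 24, and 0 of 20 last exons were called by edgeR, with 2 at an unadjusted p under 0.05 and 1 called by the Cochran-Mantel-Haenszel test. Over all features 1.15% of promoters, 0.905% of bodies and 1.8% of last exons lost and 0.789%, 0.578% and 1.58% gained. The median promoter change was -0.46 points. Of the 23 promoters, 0 passed Fisher's test in both populations, 0 were called in the fit without population and 2 by the Cochran-Mantel-Haenszel test. The promoter of lactase, Lct, stayed high, at 80.5% and 86.3% at P0 and 84.2% and 87.3% at P21. Of 16 genes of fetal programmes 0 were called at the promoter, gene body or last exon by edgeR, with 1, 6 and 1 at an unadjusted p under 0.05 and 1, 0 and 0 by the Cochran-Mantel-Haenszel test. Of 16 genes of the methylation machinery 0 were called at promoter or body, with 2 and 8 at an unadjusted p under 0.05 and 0 by the Cochran-Mantel-Haenszel test. In that list the last exon of Gadd45a fell from 29.7% and 27.7% to 4.30% and 9.88% and that of Gadd45b rose from 6.28% and 5.34% to 20.3% and 14.9%, both being stress-response genes linked to demethylation. The promoters of Dnmt1 and Dnmt3a were at or below 7.40% in the 4 libraries.

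Glycosylation genes had gains and no called loss over whole promoters, bodies and last exons, while single bins went both ways. From 1000 bp upstream to the gene's end, St6galnac1 held 10 lost and 0 gained of 85 tested bins. Gal3st1 held 4 gained and 0 lost of 59. Of 35 genes, 1 promoter gained and 0 lost, 3 bodies gained and 0 lost, and 5 last exons gained and 0 lost, with medians of 0.07, 0.65 and 1.02 points beside 0.03, -0.33 and 0.21 over all. Over all promoters, bodies and last exons 0.789%, 0.578% and 1.58% gained and 1.15%, 0.905% and 1.8% lost. Fisher's test in both populations was passed by 1 promoter, 1 body and 3 last exons of the list. The last exon of Gal3st1, which sulfates glycolipids, rose from 49.3% and 49.1% to 80.2% and 79.8%, and that of AI464131 from 32.9% and 31.6% to 64.3% and 67.7%. B4galnt4 rose from 20% and 26.1% to 53.5% and 46.4% in its last exon on at least 55 calls, and St6galnac6 gained at both its promoter and its last exon. Of 52 tested bins of St6galnac6, however, 0 gained and 0 lost by the bin rule. The body of AI464131 rose by 25.1 points with summed calls but changed by -0.93 points with the mean of bin levels, and it held 10 gained and 7 lost bins. With the mean of bin levels its last exon changed by 12.0 and not 33.8 points, the body of Gal3st1 by 4.71 and not 12.8, the body of B3gnt3, a core glycan transferase, by 4.47 and not 10.5, and the last exon of B3gnt3 by 6.25 and not 10.7. Among 9 genes that the study had chosen from these libraries for follow-up, which is no independent evidence of direction, 0 of 9 promoters were called, 1 body gained (AI464131) and 1 lost (Rnf43), and 2 last exons gained (AI464131 and Lpar5). For those promoters edgeR gave 2 at an unadjusted p under 0.05, and the Cochran-Mantel-Haenszel test called 1. Over the whole gene from 1000 bp upstream, Lpar5 held 3 gained and 7 lost of 39 tested bins.

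Patterning factors had calls in both directions. Of 69 promoters 3 gained and 4 lost, of 69 bodies 6 gained and 3 lost, and of 67 last exons 8 gained and 7 lost, with medians of 0.23, 0.51 and 0.82 points. The shares over all features, in the same order, were 0.789% and 1.15% for promoters, 0.578% and 0.905% for bodies and 1.58% and 1.8% for last exons. The 3 gained promoters include both Hoxa3 windows, which overlap and share most of their calls, so they are not separate regions. The Hox genes, which set position along the gut, divided by cluster, and the clusters were singled out after their values were seen. In the Hoxa cluster 25 of 376 tested bins gained (6.65%) and 6 lost (1.60%), and in the Hoxd cluster 21 of 334 gained (6.29%) and 1 lost. In the Hoxb cluster 4 of 544 gained (0.735%) and 28 lost (5.15%). In the Hoxc cluster 0 of 330 bins changed, and its mean bin level was 6.70% to 7.90% in the 4 libraries. The called members followed the bins of their cluster with the exceptions of Hoxa11, whose last exon lost, and Hoxd10, whose body lost.

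Among single Hox genes, the promoter of Hoxa2 rose from 63.2% and 49.2% to 82.9% and 82.4%. Those of Hoxb5, Hoxb4 and Hoxb3 fell, Hoxb5 from 66.5% and 52.0% to 26.5% and 41.0%. The body of Hoxd4 rose from 36.2% and 45.2% to 70.8% and 64.0% and its last exon by 19.1 points with summed calls and 10.2 points with the mean of bin levels. Hoxa9 gained in its last exon by 10.9 points with summed calls and 6.12 points with the mean of bin levels, and in differentiated cells alone the change was 1.78 points.

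Among the factors outside the Hox clusters, the promoter of Hnf4a, a nuclear receptor of the enterocyte, fell from 39.9% and 35.4% to 25.5% and 21.3%. Foxa2, a pioneer factor of endoderm, gained over its body, from 5.71% and 7.79% to 22.9% and 18.7%, and in its last exon. Bodies of Irx4 and Pdx1 and the last exon of Tbx3 gained, and the last exon of Cdx2, the intestinal master regulator, fell from 30% and 21.2% to 9.74% and 14.9%. From 1000 bp upstream to the end of Cdx2, 0 of 33 tested bins were lost and 0 gained. Of the 11 epithelial marker genes, bodies of Krt8 and Epcam and last exons of Vil1, Cdx2, Cldn7 and Krt8 lost and the last exon of Krt20 gained, beside 0.905% of all bodies lost, 1.8% of all last exons lost and 1.58% gained. Their median change was -5.16 points over bodies, with 9 of 11 at an unadjusted p under 0.05, and -6.61 points over last exons. Fisher's test in both populations was passed by 2 of the 11 bodies and 2 of the 11 last exons. Krt20 held 0 gained and 1 lost of 30 tested bins. For these 11 genes 0 promoters were called by edgeR, with 4 at an unadjusted p under 0.05. In the leukocyte, mesenchyme and muscle, endothelium, erythroid, and neural and glial lists 0 promoters, bodies or last exons were called by edgeR, with 2 of 30 promoters, 8 of 30 bodies and 5 of 28 last exons at an unadjusted p under 0.05, and the Cochran-Mantel-Haenszel test called 1 promoter and 1 last exon, both of the mesenchyme and muscle list. The share of other cell types in each sort was otherwise not tested.

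Gained and lost bins held some short motifs in different shares, and for others both departed from all bins in the same direction. The 21 motifs were searched on both strands, and shares are compared with all 4076373 tested bins as a description, not matched for base composition, with median GC of 51.5% in gained, 49.0% in lost and 47.0% in all bins. The HNF4 motif CAAAGTCCA was in 0.886% of lost, 0.144% of gained and 0.253% of all bins, a ratio of 3.51 for lost and 0.571 for gained bins. A related nuclear receptor motif, TGACCTTTG, had a ratio of 2.12 in lost and 0.998 in gained bins. Lost bins also held more of the BLIMP1 motif AAAGTGAAA (2.03), the ETS motif CCGGAAGT (1.82), the NF-kB motif GGGANTTCC (1.72), the PU.1 motif GAGGAAGT (1.71), which can share bases with the ETS motif, and the E-box CAGCTG (1.62), which was also more frequent in gained bins (1.20). Gained bins held more of the KLF motif CCCCACCC (2.06), the CTCF motif CNAGGNGGC (1.69) and the FOXA motif TGTTTAC (1.41), and fewer of the RUNX motif TGTGGTT (0.669). Lost bins differed from all bins in the same direction for CTCF (1.25), FOXA (1.23) and RUNX (0.884), and their KLF ratio was 0.996. Among bins outside islands and more than 2 kb from a start the HNF4 ratio was 3.61 in lost and 0.643 in gained bins.

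**Figure D5:**
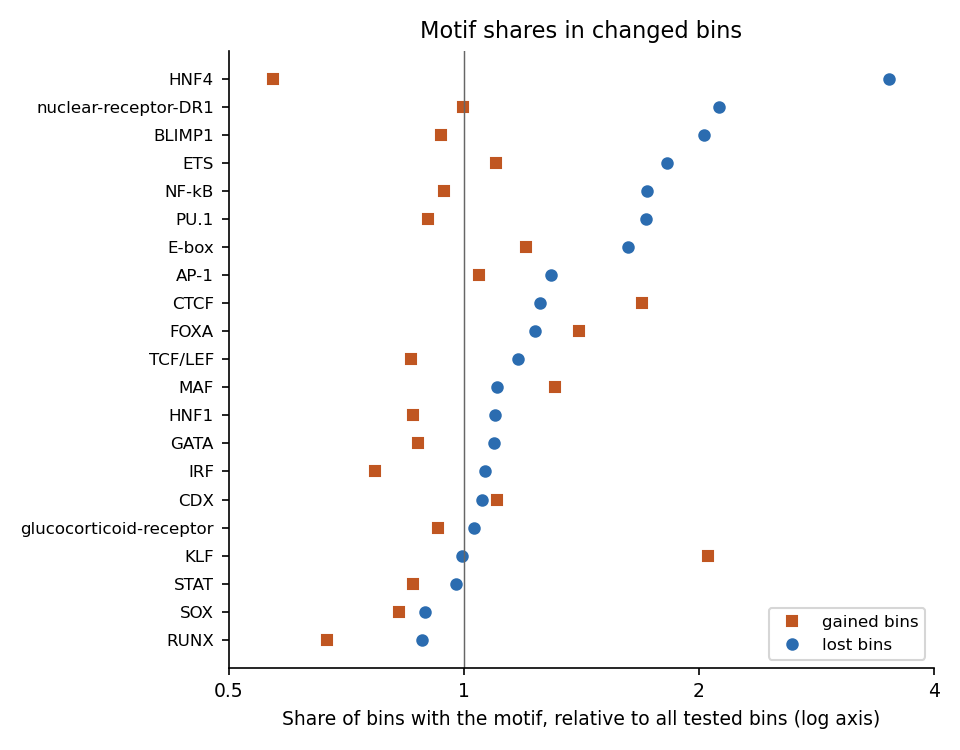
Share of gained bins (orange squares) and lost bins (blue circles) that hold each of 21 motifs, divided by the share of all tested bins, on a log axis. HNF4 stands farthest to the right for lost bins, at 3.51, and KLF for gained bins, at 2.06.

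The 4 bins with the HNF4 motif within genes and outside exons that lost most, at 50 or more calls in every library, lay in Osbpl10, Impa1, Gm20388 and Adam9. Those of Osbpl10, Impa1 and Adam9 are shown on the forward strand of mm9 with the motif, or its reverse complement, in capitals. The bin in intron 2 of Osbpl10 (chr9:115029401-115029600), an oxysterol-binding protein gene, fell from 79.5% and 72.9% to 6.25% and 11.7%. That in intron 7 of Impa1 (chr3:10319001-10319200), an inositol monophosphatase gene, fell from 76.6% and 68.7% to 19.6% and 9.09%. That in intron 1 of Gm20388 (chr8:122984401-122984600), a gene model known only by number and not shown for that reason, fell from 86.4% and 90.1% to 29.0% and 33.3%. That in intron 4 of Adam9 (chr8:26110201-26110400), a metalloproteinase gene, fell from 75.4% and 76.0% to 27.4% and 17.9%. A match of letters does not show binding.
Osbpl10: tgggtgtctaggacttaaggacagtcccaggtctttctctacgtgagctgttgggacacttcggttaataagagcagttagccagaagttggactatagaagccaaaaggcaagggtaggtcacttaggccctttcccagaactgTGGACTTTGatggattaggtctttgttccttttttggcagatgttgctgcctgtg
Impa1: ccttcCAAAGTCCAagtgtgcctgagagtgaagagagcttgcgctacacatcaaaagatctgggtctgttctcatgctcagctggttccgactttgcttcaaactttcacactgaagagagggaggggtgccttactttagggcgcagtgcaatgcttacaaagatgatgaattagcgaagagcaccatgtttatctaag
Adam9: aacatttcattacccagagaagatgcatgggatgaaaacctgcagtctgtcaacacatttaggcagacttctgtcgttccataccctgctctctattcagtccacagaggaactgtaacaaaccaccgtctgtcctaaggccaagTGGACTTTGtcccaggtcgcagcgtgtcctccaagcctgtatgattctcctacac

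The age effect was set beside the difference between the populations in the same promoter fit. By the same thresholds 463 promoters (2.3%) differed between differentiated cells and ISCs, 64 higher and 399 lower in differentiated cells, and 13 of them also changed with age. Of the 463, 304 held a CGI bin. With the mean of bin levels in place of summed calls 30 promoters differed between the populations, whereas 392 changed with age. Summed calls weight each bin by its depth, and depth in islands differed between the sorts, for example 2614 and 3278 calls in ISCs against 9614 and 8961 in differentiated cells over the AI464131 run. The part of depth in the differences between the populations was not tested further.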

How the data were processed

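DNA of sorted cells had been bisulfite converted and sequenced as paired-end reads. Per the labels the authors mapped reads with Bismark and Bowtie to mm9, with versions not given in the sources used here. The deposited files held, for each cytosine of a CpG, the methylated count, the total count and their fraction, and only counts were used. The removal of duplicate reads is not stated. Between 0.465% and 0.85% of positions were not at a CpG of the reference and were left out. Counts of both strands were summed per CpG and per 200-bp bin. A CGI was a stretch with 25 or more CpGs in windows of 500 bp. Genes were those of GENCODE M1, with 1 transcript per protein-coding gene, the longest coding sequence. edgeR 4.0.16 was run with a total per library, population and age, on sums without bins over 250 calls per CpG. limma, the Cochran-Mantel-Haenszel test and Fisher's exact test (Python) were alternatives. All p-values were two-sided and adjusted over all features by Benjamini-Hochberg. Scripts were tested on simulated data.

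Named promoters were the 8 gains and 8 losses, and named bodies and last exons the 4 gains and 4 losses, with the largest mean difference among those called with 100 or more calls in every library. Runs were the 3 longest a direction, ties to the larger difference, and genes the 4 a direction with the largest share of changed bins. Called list members and some defining members were also named, as were promoters called in opposite directions. The members and lists were chosen with earlier results of these data known. With 1 library per group no replicate error could be given: intervals are 95% Wilson intervals, for counting error only. An exact permutation test of 2 libraries against 2 cannot give a two-sided p below 0.333, so none was run. Some results that fit these rules are not reported here.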

Additional observations from a re-analysis of the deposited data

Results flagged for a closer look

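Looked at here were the 8 gaining and 8 losing promoters named by size and those called in opposite directions in the populations. The age change differed between the populations at 9 of them, and the figures are the change in differentiated cells minus that in ISCs, in points. Promoters named only as list members, such as that of Hoxb5, were not part of this tally. At 5 promoters Fisher's test was passed in opposite directions in the populations, with more than 10 points in each: Wfdc15b (22.7), Bcas1 (24.1), Lrrc34 (21.5), Spaca1 (24.1) and Cdh23 (-26.6). Wfdc15b went from 35.7% to 23.4% in ISCs and from 18.1% to 28.6% in differentiated cells. Cdh23, a cadherin of hair cells, rose from 49.2% to 61.2% in ISCs and fell from 58.5% to 43.9% in differentiated cells. None of the 5 held a bin changed in both populations. With the mean of bin levels in place of summed calls none of the 5 changed by more than 10 points in both populations. Cdh23 then went from 58.1% to 61.1% in ISCs and from 59.6% to 56.6% in differentiated cells, and Lrrc34 from 37.1% to 36.6% and from 33.9% to 36.9%. Spaca1 went from 61.3% to 58.1% and from 62.0% to 68.6%, Bcas1 from 25.7% to 19.8% and from 22.7% to 27.5%, and Wfdc15b from 29.1% to 18.4% and from 23.3% to 25.2%. The size of these opposite changes therefore rests on how bins were weighted.

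At 4 of the promoters named by size, which changed in the same direction in both populations, the size of the change differed. This was by a Wald test of the interaction on the log-odds scale, adjusted over all 20142 promoters and covering counting error only. The 2 Hoxa3 windows, which overlap, rose more in ISCs (-17.8 and -16.0, adjusted p = 0.0486 and 0.00583). Pigr (-12.5, adjusted p = 0.0086) and Tnfsf13 (-17.6, adjusted p = 0.00543) fell more in differentiated cells. Each rests on 1 library per population and age.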

How the results depend on the processing

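Each group is 1 pooled library, so animals, sorts and sequencing runs cannot be told apart from age. At a median of 55 to 81 calls per bin, small changes were not detectable, and thinning all libraries to the lowest depth left 22165 changed bins (5344 gains). Changed bins numbered 37822 (10405 gains), and 23046 with 4 CpGs per bin (8492 gains), 15416 beyond 30 points (2207 gains) and 93456 by the Cochran-Mantel-Haenszel test (30554 gains). A minimum of 20 calls, shifted bins and, added after seeing the data, leaving out bins over 250 calls per CpG stayed within 1.5 times. Called promoters numbered 391, bodies 295 and last exons 623. Beyond 20 points there were 138, 49 and 222, and beyond 5 points 922 bodies. limma called 7, 0 and 0. The fit without population called 39 (2 gains), 7 and 345. The Cochran-Mantel-Haenszel test called 718 promoters and 963 last exons. In the fit without population, leaving out 1 library gave 82 to 128 promoters, 0 to 33 bodies (0 without either P21 library) and 282 to 507 last exons, the lowest without ISC at P21, and a lone library was then assumed to vary like the others. Fisher's test in both populations, depth limits, promoter windows and mean bin levels kept counts within 1.5 times. Of 106 named regions, 1 reversed with mean bin levels, the AI464131 body (-0.93), and 9 fell under 10 points. Of 29 named promoters, 6 lost their call with a window from 500 bp upstream and 3 with one from 2000 bp upstream. In the fit without population 59 of 106 lost their call, and with limma 102. The cause was not tested. For promoters that differed between populations, 463 became 30 with mean bin levels and 236 with Fisher's test at both ages, both added after seeing the data.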
